A study of Mus musculus with 9 samples.

Results

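The 10 genes described here encode the surface checkpoints and receptors through which phagocytes spare or engulf other cells. They are the inhibitory pair Cd47 and Sirpa with the second inhibitory ligand Cd24a, the engulfment signal Calr with its receptor Lrp1, the receptors Mertk, Axl and Tyro3 with their ligand Gas6, and the bridging protein Mfge8. All entries of the 9 per-tumor expression tables that named one of these symbols were taken, and their values were summed in each tumor. All 10 genes were found in all 9 tumors, of 50406 genes in the tables. Each had 1 entry in every tumor, and only Calr shared an entry with another gene, in PBS tumor 1.

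The study asked how orthotopic liver tumors that did or did not respond to anti-PD-1 antibody differ. Male C57BL/6 mice aged 6 to 8 weeks carried pieces of Hepa1-6 tumor, grown from a mouse hepatoma cell line, in the left lobe of the liver. From day 10 to day 26 they were given 5 intraperitoneal injections 4 days apart, of PBS (3 tumors) or of the anti-PD-1 clone RMP1-14 at 5 mg per kg, and on day 27 the tumors were cut free of the tissue around them. Antibody-treated tumors formed a nonresponsive group (3 tumors) and a responsive group (3 tumors). The largest were called nonresponsive and the smallest responsive, and intermediate ones were not sequenced, so tumor size and response cannot be told apart. All tumors came from 1 cell line in intact mice, and each was bulk tissue, in which fewer cells of a type and less RNA per cell cannot be told apart.

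CD47 on a target cell binds SIRPα on a macrophage and restrains phagocytosis, and CD24 delivers a similar restraint through Siglec receptors. Calreticulin is a chaperone of the endoplasmic reticulum that acts as an engulfment signal once it is displayed on the surface of stressed or dying cells, where LRP1 recognizes it. Clearance of apoptotic cells, called efferocytosis, relies on proteins that bridge exposed phosphatidylserine to a phagocyte: GAS6 couples it to the receptor tyrosine kinases TYRO3, AXL and MERTK (the TAM receptors), and MFGE8 couples it to integrins. In the liver, MERTK is best known from macrophages, and GAS6 and AXL also from stellate cells and fibroblasts.

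Values are FPKM, fragments scaled to transcript length and to the mapped fragments of the library, which allows levels of different genes to be set side by side. Entries with a gene name summed to between 651110 and 814452 FPKM per tumor, and entries without one held 19.2% to 81.5% of all FPKM in a tumor, lowest in PBS tumor 3 and highest in PBS tumor 1. Relative sequencing depth, read from the value of a single fragment, lay between 0.944 and 1.07 of that of PBS tumor 1. The half-width of the 95% interval that Cufflinks gave to a value was 3.60% to 11.9% of the value for 9 of the 10 genes, and 29.5% to 76.4% for Tyro3, the lowest of them. Of 14 macrophage markers, all were above 0 in every tumor, and all 8 proliferation markers were at 1 FPKM or more in every tumor. Of 8 markers of Hepa1-6 cells and fetal liver, 3 (Dlk1, Igf2bp3 and Lin28b) were at 0 in at least 1 tumor, and Afp ranged from 0.321 FPKM in nonresponsive tumor 1 to 56.5 FPKM in nonresponsive tumor 3. Pancreatic acinar markers summed to 1147 FPKM in nonresponsive tumor 2 and to between 11.3 and 18.1 FPKM in the other tumors.

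Of the 10 genes, 3 kept their place in the order of levels in all tumors. Calr was the highest in each of the 9, at 372 to 492 FPKM, at the 98.3 to 98.8 percentile of named genes above 0. Mertk was in the ninth place in every tumor (4.30 to 19.3 FPKM) and Tyro3 in the tenth (0.908 to 3.53 FPKM). The other 7 genes exchanged places between the second and the eighth, and Axl held both of these in different tumors. Calr varied least among the 10 over all 9 tumors, with a highest value 1.32 times the lowest, and Gas6 varied most, with a highest value 6.65 times the lowest.

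**Figure D1:**
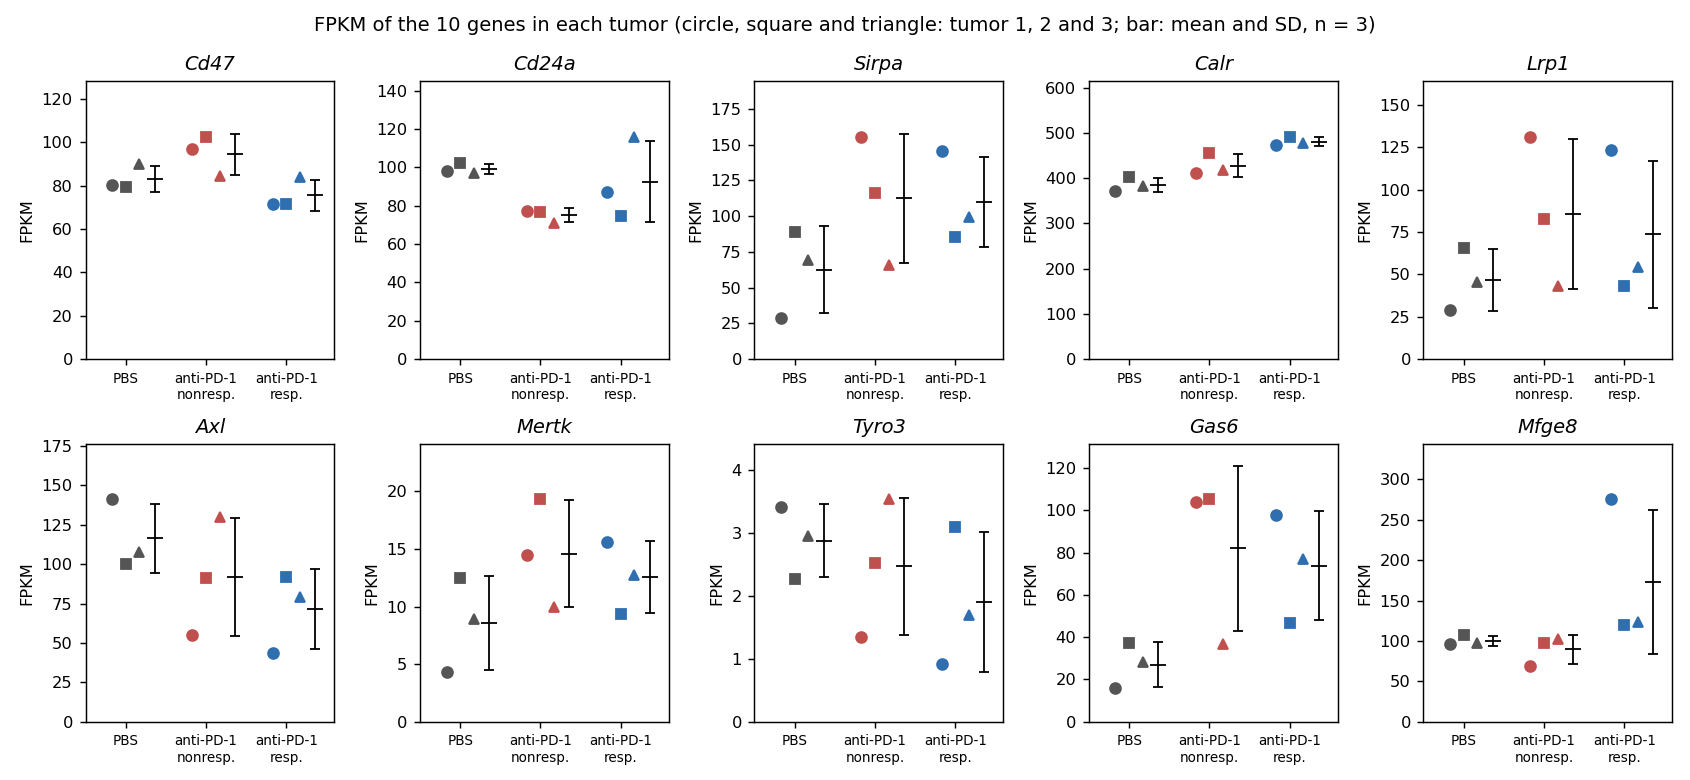
FPKM of each gene in the 9 tumors, with 1 panel per gene and its own axis starting at 0. Points are single tumors (circle, square and triangle for tumor 1, 2 and 3 of a group), and bars are the mean and SD of 3 tumors. Calr stands in 3 steps without overlap, Mfge8 is highest in responsive tumor 1 at 275 FPKM, and Sirpa, Lrp1 and Gas6 spread widely within each antibody group.

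No gene of the 10 passed an adjusted p of 0.05 in any of the 3 comparisons (limma on log2(FPKM + 1) over all genes tested). Responsive and nonresponsive tumors differed without overlap in 3 of the 10 genes, Mfge8 and Calr higher and Cd47 lower in responsive tumors, and none had an unadjusted p under 0.05. Among the 13845 genes tested, 0.116% passed an adjusted p of 0.05, 5.49% had an unadjusted p under 0.05, and 10.5% had groups that did not overlap. Between nonresponsive and PBS tumors, 2 of 10 did not overlap (Calr higher, Cd24a lower) and 2 of 10 had an unadjusted p under 0.05 (Gas6 and Cd24a), where 0.0797% of all genes passed the adjusted threshold, 3.22% the unadjusted one and 8.2% did not overlap. Between responsive and PBS tumors, 4 of 10 did not overlap (Gas6, Mfge8 and Calr higher, Axl lower) and 1 of 10, Gas6, had an unadjusted p under 0.05, where 0.231% of all genes passed the adjusted threshold, 17.2% the unadjusted one and 28% did not overlap. Both comparisons with PBS share the same 3 control tumors. The exact permutation test of 3 against 3 tumors cannot give less than 0.1, which is the two-sided value for every gene whose groups did not overlap.

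The median log2 difference of the 10 genes was -0.12 in responsive against nonresponsive tumors, where that of all genes tested was -0.07. It was 0.17 in nonresponsive against PBS tumors, beside -0.06 for all genes, and 0.45 in responsive against PBS tumors, beside -0.11. Scaling to the summed FPKM of named entries moved the median of all genes from -0.07 to -0.24 between the antibody groups and the share of genes on the higher side from 42.6% to 26.8%, and left 2 of the 10 genes higher instead of 4. In each comparison with PBS, 6 of the 10 genes were on the higher side and 4 on the lower. Of all genes, 44.6% were higher in nonresponsive and 42.2% in responsive tumors than in PBS tumors.

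**Figure D2:**
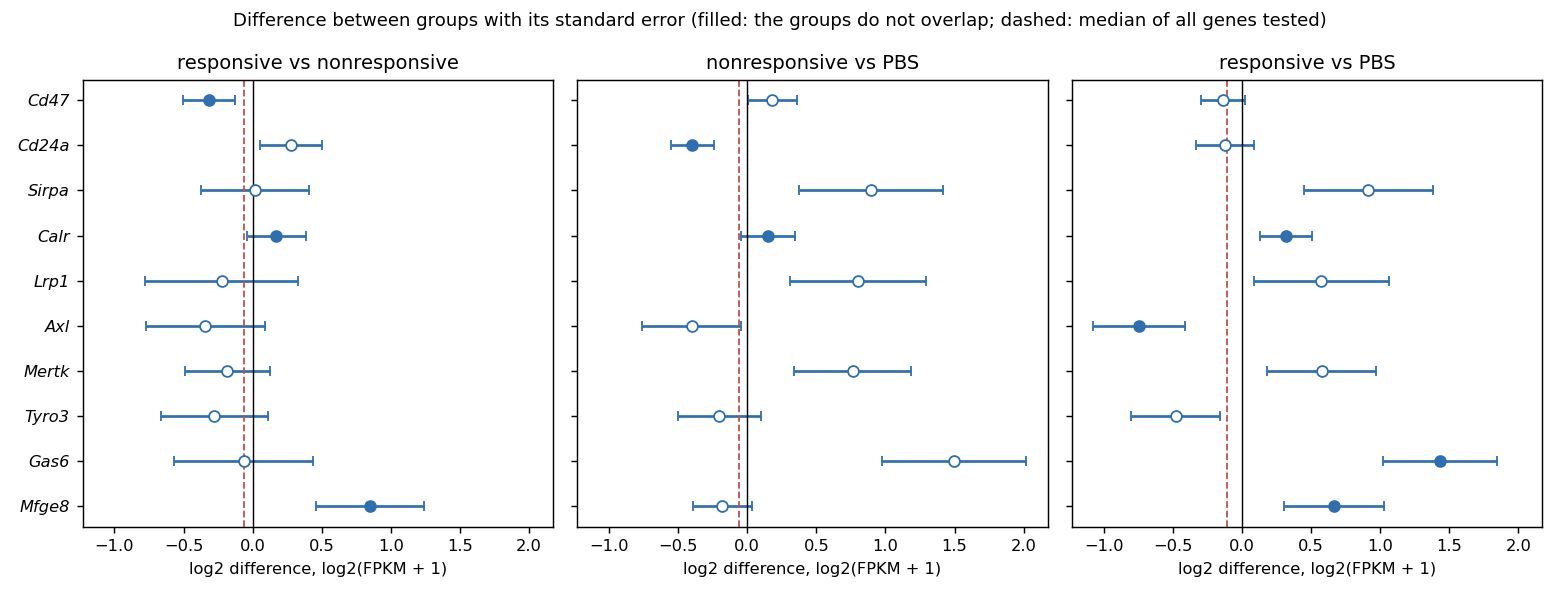
Log2 difference of each gene on log2(FPKM + 1) with its standard error from limma, n = 3 tumors per group. Filled points mark genes whose groups do not overlap, and the dashed line is the median of all genes tested. Gas6 lies at 1.50 and 1.43 against PBS and at -0.07 between the antibody groups, while Mfge8 lies at 0.85 between them.

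Of the inhibitory ligands, Cd47 was lower in all 3 responsive tumors than in any nonresponsive one, while Cd24a was lower in all 3 nonresponsive tumors than in any PBS one. Cd47 was at 80.2, 79.3 and 89.9 FPKM in PBS tumors, 96.8, 102.7 and 84.3 FPKM in nonresponsive tumors and 71.5, 71.5 and 83.9 FPKM in responsive tumors. The third responsive and the third nonresponsive tumor were only just apart, and PBS tumors lay between and overlapped both. Responsive minus nonresponsive tumors gave -0.32 on the log2 scale (SE 0.19, limma adjusted p = 0.964). It stayed negative under all 18 alternative settings, at -0.52 to -0.26, but only scaling and the covariates could have reversed it. The groups did not overlap, so leaving out a tumor or changing the pseudocount could not turn the sign. The filters, joined loci, joint fit of all tumors, replicate block and robust variance left the difference itself unchanged. Against PBS, Cd47 differed by 0.18 (SE 0.17) in nonresponsive and by -0.14 (SE 0.16) in responsive tumors.

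Cd24a, whose product on tumor cells inhibits phagocytes, was at 97.9, 102.0 and 97.0 FPKM in PBS tumors and at 77.4, 76.8 and 70.8 FPKM in nonresponsive ones. Responsive tumors spanned both groups at 87.1, 74.5 and 116.0 FPKM. The difference between nonresponsive and PBS tumors was -0.40 (SE 0.16, limma unadjusted p = 0.0467, adjusted p = 0.718), and between responsive and nonresponsive tumors 0.28 (SE 0.23, adjusted p = 0.973). The ratio of both ligands separated the nonresponsive group from the others: Cd24a was 0.75 to 0.84 times Cd47 in nonresponsive tumors, 1.08 to 1.29 times in PBS tumors and 1.04 to 1.38 times in responsive tumors. This ratio was chosen after its values were seen and has no test.

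Sirpa, the CD47 receptor of macrophages and other myeloid cells, was at 28.9, 88.6 and 69.6 FPKM in PBS tumors, 155.6, 116.2 and 65.7 FPKM in nonresponsive tumors and 145.3, 85.5 and 99.3 FPKM in responsive tumors. It was lowest in PBS tumor 1 and highest in the first tumor of each antibody group, and all 3 groups overlapped. Its difference was 0.02 (SE 0.39) between the antibody groups. Against PBS it was 0.90 (SE 0.52, adjusted p = 0.718) in nonresponsive and 0.91 (SE 0.47, adjusted p = 0.327) in responsive tumors. Without PBS tumor 1 these differences were 0.43 and 0.45. The ratio of Sirpa to Cd47 ranged from 0.36 in PBS tumor 1 to 2.03 in responsive tumor 1. It was at least 1.18 in responsive and at most 1.12 in PBS tumors, a small gap. Each of the genes alone overlapped between these groups, where 28% of all genes did not overlap. The ratio has no test.

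**Figure D3:**
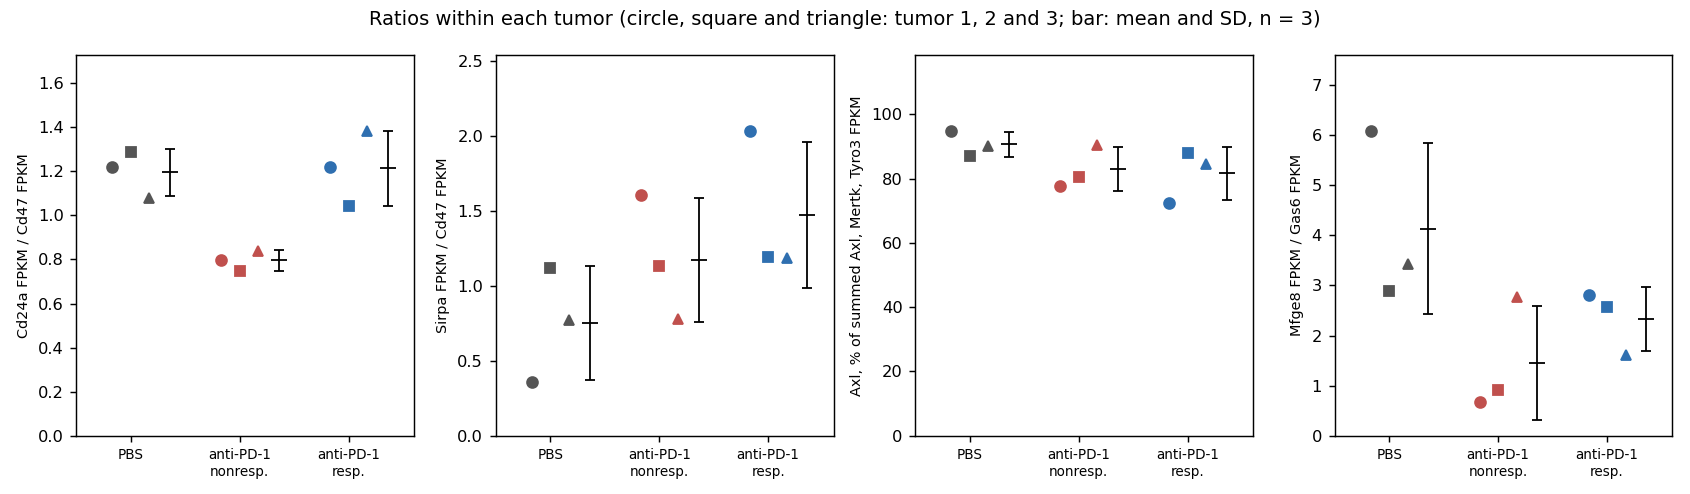
Ratios of FPKM within each tumor: Cd24a to Cd47, Sirpa to Cd47, the share of Axl in the summed TAM receptors, and Mfge8 to Gas6. Points are single tumors and bars the mean and SD of 3 tumors. The Cd24a to Cd47 ratio is below 1 in all 3 nonresponsive tumors and above 1 in the other 6.

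Calr was the gene in which the 3 groups stood in order without overlap, PBS lowest and responsive highest. It was at 372, 402 and 382 FPKM in PBS tumors, 411, 456 and 417 FPKM in nonresponsive tumors and 474, 492 and 477 FPKM in responsive tumors. The value of PBS tumor 1 is that of the shared entry, so Calr alone was at most that high there. The steps were small: responsive tumors had a mean 1.12 times that of nonresponsive tumors and 1.25 times that of PBS tumors. The Cufflinks intervals of bordering tumors overlapped, at 385 to 420 FPKM in PBS tumor 2 and 393 to 429 FPKM in nonresponsive tumor 1. They were 436 to 476 FPKM in nonresponsive tumor 2 and 453 to 495 FPKM in responsive tumor 1. How many of all genes stand in such an order was not counted. The log2 difference was 0.17 (SE 0.21, adjusted p = 0.973) between the antibody groups, 0.15 (SE 0.19, adjusted p = 0.747) for nonresponsive against PBS, and 0.32 (SE 0.19, adjusted p = 0.366) for responsive against PBS. After scaling to the summed FPKM of named entries, which was higher in responsive tumors, the difference between the antibody groups was -0.03.

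The Calr promoter is shown because it holds an ER stress response element, the sequence through which chaperone genes are induced when proteins misfold. It is chromosome 8, 84846882 to 84847181, minus strand, in RefSeq on GRCm38.p6, from 250 bases before the start of transcription to 50 after. Capitals mark the matches of 6 motifs searched on both strands: the GC box GGGCGG, the CAAT box CCAAT, the TATA box TATAAA, the AP-1 site TGANTCA, the cell cycle homology region TTTGAA, and the ER stress response element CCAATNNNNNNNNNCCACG, which overlaps CCAAT.
Calr: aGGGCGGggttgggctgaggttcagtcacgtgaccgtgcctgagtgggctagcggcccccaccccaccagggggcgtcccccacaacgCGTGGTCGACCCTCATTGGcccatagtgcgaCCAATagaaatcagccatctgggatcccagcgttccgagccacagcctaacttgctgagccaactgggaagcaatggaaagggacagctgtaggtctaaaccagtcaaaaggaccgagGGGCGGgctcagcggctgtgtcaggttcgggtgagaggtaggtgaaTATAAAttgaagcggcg
The element, here on the opposite strand, was in 0.119% of 32817 promoters of this length, a GC box in 35.6%, a CAAT box in 37.4%, a TATA box in 13.6%, an AP-1 site in 7.81% and a cell cycle homology region in 17.9%. Of 14 other chaperone and cell death genes with a promoter sequence, 4 held it: Canx, Hsp90b1, Hspa5 and Pdia6. Hspa5, the ER chaperone BiP, had 207, 323 and 304 FPKM in PBS tumors, 410, 430 and 293 FPKM in nonresponsive tumors and 456, 445 and 365 FPKM in responsive tumors, with no overlap between responsive and PBS (0.62, SE 0.26, adjusted p = 0.291). Hsp90b1, the ER chaperone GRP94, had 376, 437 and 409 FPKM, then 331, 460 and 422 FPKM, then 442, 471 and 526 FPKM, also without overlap between responsive and PBS tumors (0.24, SE 0.20), and its entry also named a predicted gene in all tumors. Canx, the membrane chaperone calnexin, had 179, 169 and 182 FPKM in PBS tumors, 111, 264 and 176 FPKM in nonresponsive tumors and 134, 182 and 147 FPKM in responsive tumors (responsive against PBS -0.20, SE 0.19), with an entry shared with another gene in 3 tumors. Pdia6, a disulfide isomerase, had 231, 209 and 222 FPKM, then 180, 190 and 224 FPKM, then 195, 264 and 216 FPKM (0.02, SE 0.20). Both overlapped between responsive and PBS tumors, so 2 of these 4 genes did not overlap where 28% of all genes did not.

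Lrp1, a large scavenger receptor that binds calreticulin, followed another pattern. It was at 29.1, 65.5 and 45.6 FPKM in PBS tumors, 131, 82.6 and 43.3 FPKM in nonresponsive tumors and 124, 43.4 and 54.6 FPKM in responsive tumors. The highest value was 3.03 times the lowest in the nonresponsive group and 2.85 times in the responsive group, and the groups overlapped. Differences were -0.22 (SE 0.55) between the antibody groups, 0.80 (SE 0.49, adjusted p = 0.718) for nonresponsive and 0.57 (SE 0.49, adjusted p = 0.504) for responsive tumors against PBS. Without responsive tumor 1 the last was 0.13. Calr exceeded Lrp1 by 3.13 to 12.8 times across tumors.

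Among the TAM receptors, Axl was by far the most abundant, at 72.4% to 94.8% of their summed FPKM. It was at 141, 99.9 and 108 FPKM in PBS tumors, 55.0, 91.0 and 130 FPKM in nonresponsive tumors and 43.5, 92.0 and 79.1 FPKM in responsive tumors. All responsive tumors lay below all PBS tumors, and nonresponsive tumors spread over both. The difference between responsive and PBS tumors was -0.75 (SE 0.33, limma unadjusted p = 0.0677, adjusted p = 0.300). It was -0.43 without responsive tumor 1. Nonresponsive and PBS tumors differed by -0.40 (SE 0.36), and the antibody groups by -0.34 (SE 0.43).

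Mertk, the TAM receptor typical of resident macrophages, ran opposite to Axl across tumors. It was at 4.30, 12.5 and 8.88 FPKM in PBS tumors, 14.5, 19.3 and 9.98 FPKM in nonresponsive tumors and 15.6, 9.32 and 12.7 FPKM in responsive tumors, with overlap between all groups. Its differences against PBS were 0.76 (SE 0.42, adjusted p = 0.718) and 0.58 (SE 0.39, adjusted p = 0.421), and -0.18 (SE 0.31) between the antibody groups. Without PBS tumor 1, which had the lowest Mertk, the differences against PBS were 0.39 and 0.20. The Axl to Mertk ratio was 32.8 in PBS tumor 1 and 2.78 in responsive tumor 1, the extremes of the 9 tumors.

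Tyro3, the third receptor of the family, was low throughout, at 3.41, 2.26 and 2.95 FPKM in PBS tumors, 1.35, 2.51 and 3.53 FPKM in nonresponsive tumors and 0.908, 3.09 and 1.69 FPKM in responsive tumors. Its Cufflinks intervals were as wide as the differences between most tumors. It made up 1.51% to 2.96% of the summed TAM receptors. The differences were -0.28 (SE 0.39) between the antibody groups, -0.20 (SE 0.30) for nonresponsive and -0.48 (SE 0.32) for responsive tumors against PBS.

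Gas6, the ligand of the TAM receptors, had the largest difference of the 10 genes in both comparisons with PBS. It was at 15.8, 37.1 and 28.3 FPKM in PBS tumors, 104, 105 and 36.9 FPKM in nonresponsive tumors and 98.0, 46.9 and 76.8 FPKM in responsive tumors. Every responsive tumor was above every PBS tumor, while nonresponsive tumor 3 was just below PBS tumor 2. The difference was 1.43 (SE 0.41, limma unadjusted p = 0.0142, adjusted p = 0.281) for responsive and 1.50 (SE 0.52, unadjusted p = 0.0297, adjusted p = 0.718) for nonresponsive tumors against PBS, where the means were 2.73 and 3.03 times that of PBS. Leaving out single tumors moved them between 1.10 and 1.72, and between 1.17 and 1.99. With the level of the hepatocyte list as a covariate the difference of responsive tumors was 0.12, and with that of the macrophage list the difference of nonresponsive tumors was 0.47. The hepatocyte list did not overlap between responsive and PBS tumors, so its fit cannot fully separate list and group. The antibody groups differed by -0.07 (SE 0.51, adjusted p = 0.996).

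Mfge8, the milk fat globule protein that bridges phosphatidylserine to integrins, was above all other tumors in all 3 responsive ones. It was at 96.4, 107 and 97.0 FPKM in PBS tumors, 69.4, 97.0 and 102 FPKM in nonresponsive tumors and 275, 120 and 123 FPKM in responsive tumors. Responsive minus nonresponsive tumors gave 0.85 (SE 0.39, limma unadjusted p = 0.0733, adjusted p = 0.892), the largest of the 10 genes in that comparison. Without responsive tumor 1 the difference was 0.46, and that between responsive and PBS tumors was 0.28 instead of 0.67 (SE 0.36, adjusted p = 0.343). Nonresponsive and PBS tumors differed by -0.18 (SE 0.21). Mfge8 exceeded Gas6 in all PBS and responsive tumors, by 1.60 to 6.08 times, and in nonresponsive tumor 3, but was below it in nonresponsive tumors 1 and 2, at 0.67 and 0.92 times.

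Across the 9 tumors, the phagocyte receptors and Gas6 varied together whatever the group, and Axl and Tyro3 varied together in the opposite direction. Pearson correlations on log2(FPKM + 1) among Sirpa, Lrp1, Mertk and Gas6 were 0.83 to 0.93 (6 pairs, n = 9 tumors), and 0.77 to 0.91 after the mean of each group was subtracted. Axl and Tyro3 correlated at 0.95 (Spearman 0.90, and 0.82 without nonresponsive tumor 1 and responsive tumor 1, the 2 tumors with the most extreme Axl). The 4 former genes correlated with these 2 at -0.89 to -0.63, and at -0.97 to -0.62 around group means. These are descriptions over 9 tumors that share a cell line, a tissue and a normalization, and they carry no p.

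The same split appeared against marker lists that did not include the genes. With the mean level of 14 macrophage markers, Mertk correlated at 0.95, Gas6 at 0.93, Sirpa at 0.93 and Lrp1 at 0.93. Without PBS tumor 1 and nonresponsive tumor 2, the extremes of that list, the values were 0.90, 0.85, 0.91 and 0.96. The summed macrophage markers ranged from 1647 to 4621 FPKM in PBS tumors, 3644 to 9106 FPKM in nonresponsive tumors and 3432 to 10454 FPKM in responsive tumors, with Lyz2, which shared an entry with Lyz1 in 4 tumors, and Ctss the highest of them. In nonresponsive tumors 1 and 2 the markers C1qb and C1qc shared 1 entry, of 869 and 972 FPKM, which the list counts for both genes. The part of macrophage content in the differences of these 4 genes was not tested beyond a fit with the list as covariate, in which the differences of Sirpa and Lrp1 between nonresponsive and PBS tumors turned to -0.05 and -0.23. With the hepatocyte list as covariate, the differences between responsive and PBS tumors turned in Sirpa (-0.60), Lrp1 (-0.83), Mertk (-0.47), Axl (0.17) and Tyro3 (0.23). The mean log2 level of that list was 7.31 to 8.51 in responsive and 2.87 to 6.10 in PBS tumors. These ranges do not overlap, so the fit cannot fully separate list and group. Other lists moved with macrophages, however: fibroblast and stellate cell markers correlated with the macrophage list at 0.97 and sinusoidal endothelial markers at 0.96, so these correlations do not assign a gene to a cell type. Mertk correlated with the fibroblast list at 0.96 and Sirpa with the endothelial list at 0.96. With the hepatocyte list Sirpa correlated at 0.88, Gas6 at 0.82, Mertk at 0.75 and Lrp1 at 0.69. With the neutrophil list these 4 genes were at 0.76 to 0.84, and with the Kupffer cell list at 0.80 to 0.94.

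Axl and Tyro3 followed the proliferation markers, at 0.96 and 0.95 (Spearman 0.92 and 0.97, and 0.89 and 0.90 without nonresponsive tumor 1 and responsive tumor 1). The summed proliferation markers, with Cdk1 and Birc5 the highest, were 66.4 FPKM in nonresponsive tumor 1 and 73.5 FPKM in responsive tumor 1, the tumors with the lowest Axl and Tyro3, and 212 to 762 FPKM in the other 7. With the list of Hepa1-6 and fetal liver markers the correlations were 0.80 and 0.88. With fibroblast and stellate cell markers they were -0.64 and -0.62. Of that list, decorin (Dcn) was highest in PBS tumor 1 at 1202 FPKM and lowest in responsive tumor 1 at 498 FPKM, as Axl was. Only Dcn and Des were higher in PBS tumor 1 than in both nonresponsive tumor 1 and responsive tumor 1. All other markers of the list were lower in PBS tumor 1 than in both.

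Calr correlated most with the dendritic cell list (0.78) and the hepatocyte list (0.77), the latter at 0.19 around group means. All 17 hepatocyte markers tested had a positive log2 difference in each of the 3 comparisons, where 42.2% to 44.6% of all genes had one. The summed hepatocyte markers ranged from 378 to 3867 FPKM in PBS tumors, 2619 to 8633 FPKM in nonresponsive tumors and 7937 to 16563 FPKM in responsive tumors. With the hepatocyte list as covariate, the Calr differences were 0.16 between the antibody groups and 0.29 between responsive and PBS tumors. The mean log2 level of the list did not overlap between responsive and other tumors, so these fits cannot fully separate list and group. Mfge8 correlated most with the B cell list, at 0.62 (0.24 around group means), and negatively with Cd47, at -0.68 (-0.38 around group means). Cd47 and Cd24a followed no list closely, with values of -0.36 to 0.52 and of -0.42 to 0.28 over the lists drawn.

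**Figure D4:**
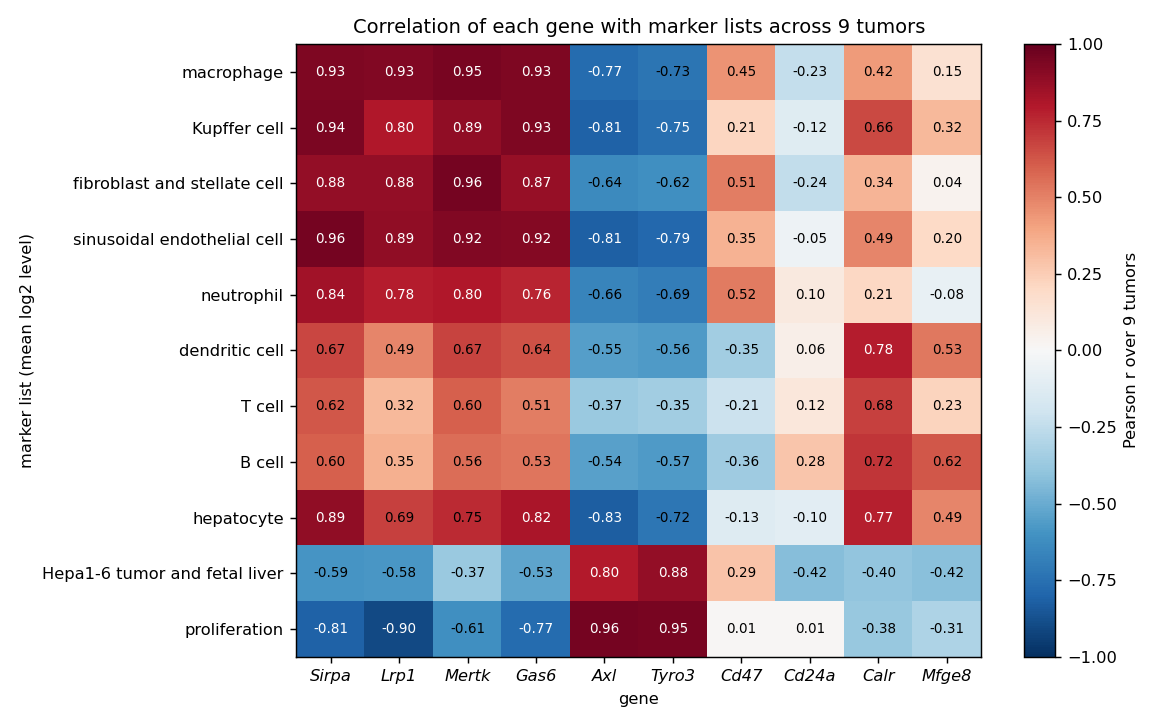
Pearson correlation over 9 tumors between each gene, in columns, and the mean log2(FPKM + 1) of each marker list, in rows, with blue negative and red positive. Sirpa, Lrp1, Mertk and Gas6 are red against macrophage, Kupffer cell, neutrophil, stromal, endothelial and hepatocyte lists, and more weakly against dendritic, T and B cell lists. Axl and Tyro3 are red against the proliferation and Hepa1-6 lists.

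**Figure D5:**
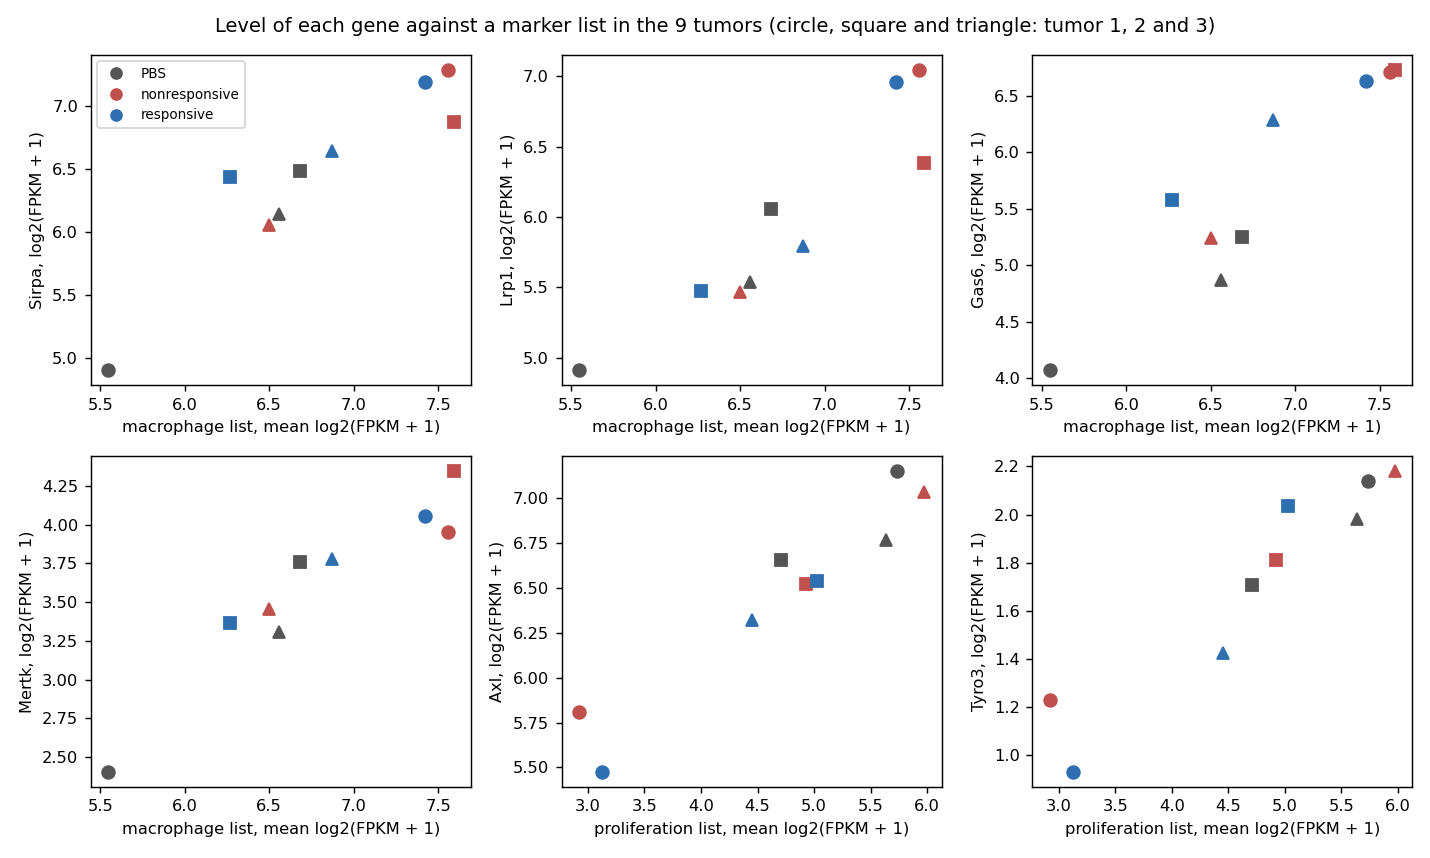
Level of Sirpa, Lrp1, Gas6 and Mertk against the macrophage list and of Axl and Tyro3 against the proliferation list, both as log2(FPKM + 1), with 1 point per tumor colored by group. Tumors of the 3 groups are mixed along each trend, with PBS tumor 1 at the low end of the macrophage list and nonresponsive tumor 1 and responsive tumor 1 at the low end of proliferation.

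Promoters of 2 genes from each of these sets are shown, since their levels moved together. RefSeq promoters on GRCm38.p6 were matched for 8 of the 10 genes, all but Sirpa and Cd24a. Gas6 is chromosome 8, 13494486 to 13494785, minus strand, and Mertk is chromosome 2, 128698665 to 128698964, plus strand. Axl is chromosome 7, 25788684 to 25788983, minus strand, and Tyro3 is chromosome 2, 119799264 to 119799563, plus strand.
Gas6: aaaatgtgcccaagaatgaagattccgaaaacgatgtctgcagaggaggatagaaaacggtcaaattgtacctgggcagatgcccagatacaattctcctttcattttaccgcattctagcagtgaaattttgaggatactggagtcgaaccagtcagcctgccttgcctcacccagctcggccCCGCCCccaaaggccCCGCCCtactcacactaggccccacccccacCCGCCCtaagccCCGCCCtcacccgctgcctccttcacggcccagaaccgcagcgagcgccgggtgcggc
Mertk: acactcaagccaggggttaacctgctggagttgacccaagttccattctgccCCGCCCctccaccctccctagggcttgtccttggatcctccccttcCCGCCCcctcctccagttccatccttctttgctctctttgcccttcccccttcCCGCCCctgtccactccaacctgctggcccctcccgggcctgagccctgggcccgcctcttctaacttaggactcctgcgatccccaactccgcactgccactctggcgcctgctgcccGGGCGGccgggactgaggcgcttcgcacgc
Axl: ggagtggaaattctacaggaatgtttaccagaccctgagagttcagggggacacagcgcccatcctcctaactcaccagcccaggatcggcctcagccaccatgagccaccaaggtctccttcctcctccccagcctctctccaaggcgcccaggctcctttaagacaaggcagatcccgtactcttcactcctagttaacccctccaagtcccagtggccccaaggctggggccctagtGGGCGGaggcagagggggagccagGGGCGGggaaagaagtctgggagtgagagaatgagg
Tyro3: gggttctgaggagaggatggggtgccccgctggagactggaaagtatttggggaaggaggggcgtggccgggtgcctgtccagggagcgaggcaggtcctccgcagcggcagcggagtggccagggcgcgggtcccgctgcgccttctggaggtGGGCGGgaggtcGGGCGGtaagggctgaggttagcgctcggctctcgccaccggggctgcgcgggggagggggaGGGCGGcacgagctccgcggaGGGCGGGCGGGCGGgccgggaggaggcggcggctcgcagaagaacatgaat
Capitals mark GC boxes, 4 in Gas6, 4 in Mertk, 2 in Axl and 6 in Tyro3. None of the 4 windows held any of the other 5 motifs, so these letters did not separate Axl and Tyro3 from Gas6 and Mertk.

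Of the genes whose levels were most like those of a member over the 9 tumors, among 13276 genes, Sirpa was nearest to Hand2 and Cxcl12 (both 0.99), Lrp1 to Ctsk (0.99) and Dtx4 (0.99), Mertk to Gdf6 and Vipas39 (both 0.98) and Gas6 to Zcchc24 and Hectd3 (both 0.98). Cxcl12, a stromal chemokine, ran from 15.0 FPKM in PBS tumor 1 to 480 FPKM in nonresponsive tumor 1. Tyro3 was nearest to Aspm, a mitotic spindle gene (0.99), which ran from 0.840 FPKM in responsive tumor 1 to 7.60 FPKM in PBS tumor 1. Cd47 was nearest to Elk3 (0.94) and Cysltr1 (0.93), Cd24a to Plet1 (0.92) and the chemokine Ccl22 (0.92), Calr to Gm1673 and Nfia (both 0.91), and Mfge8 to Gm20683 (0.93). Axl was nearest to the predicted genes Gm22193 (0.996) and Gm7446 (0.995), and Tyro3 had Gm45216 in the second place (0.99).

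The rest of the engulfment pathway was measured with 5 lists, and no gene of them passed an adjusted p of 0.05 in any comparison. Of 23 other phosphatidylserine and debris receptors and bridging proteins tested between nonresponsive and PBS tumors, 21 were higher and 2 lower, with a median of 0.61, where 44.6% of all genes were higher, and 3 had an unadjusted p under 0.05, where 3.22% of all genes did. Macrophage markers moved with this list: 14 of 14 were higher, with a median of 0.89, and C1qa, C1qb, C1qc and Mrc1 are in both lists. The part of macrophage content in the counts of this and the following lists was not tested. Stab1, the scavenger receptor stabilin-1, was at 7.83, 16.0 and 10.2 FPKM in PBS tumors and at 43.9, 32.5 and 14.7 FPKM in nonresponsive tumors (1.27, SE 0.46, adjusted p = 0.718). The complement opsonins C1qb and C1qc were the others, but in nonresponsive tumors 1 and 2 both stood on a single shared entry of 869 and 972 FPKM, whose value was taken for each gene. C1qa, which had its own entry, was at 228, 375 and 294 FPKM in PBS tumors and at 518, 407 and 402 FPKM in nonresponsive tumors (0.58, SE 0.27). Between responsive and nonresponsive tumors, 7 of 24 genes of this list were higher and 17 lower, with a median of -0.29, beside 2 of 14 macrophage markers higher and 12 lower, with a median of -0.40. Of all genes, 42.6% were higher there. Anxa1, the phosphatidylserine-binding annexin A1, was below all nonresponsive tumors in responsive ones, at 80.9, 74.9 and 88.1 against 112, 215 and 127 FPKM (-0.83, SE 0.30, adjusted p = 0.885).

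Engulfment signalling and phagosome genes were on the higher side in nonresponsive against PBS tumors for 24 of 31 genes (median 0.38). Of all genes, 44.6% were higher there (median -0.06). In responsive against nonresponsive tumors 6 of 31 were higher and 25 lower (median -0.12), where 42.6% of all genes were higher (median -0.07). Pparg, a nuclear receptor that macrophages use in efferocytosis, was at 0.537, 1.84 and 2.47 FPKM in PBS tumors and 4.06, 3.30 and 5.47 FPKM in nonresponsive tumors (1.07, SE 0.37, adjusted p = 0.718). Elmo1, an adaptor that activates Rac during engulfment, was at 2.96, 6.35 and 4.28 against 10.2, 14.0 and 6.09 FPKM (0.98, SE 0.37, adjusted p = 0.718). Its partner Dock1 was lower in all responsive than in all PBS tumors, at 6.38, 9.88 and 6.71 against 16.5, 11.9 and 11.9 FPKM (-0.75, SE 0.23, adjusted p = 0.281). Tyrobp, Lamp1 and Ucp2, the highest of the list, had differences of 0.89 (SE 0.52), 0.57 (SE 0.34) and 0.38 (SE 0.26) in nonresponsive against PBS tumors. The entries of Dock1 and Ucp2 each named another gene in 1 tumor. The oxysterol receptor gene Nr1h3 shared its entry with Gm13783 in all tumors and with Madd in most, and that entry was listed at 0 in PBS tumors 2 and 3 and nonresponsive tumor 2. The entry was at 9.09 FPKM in PBS tumor 1 and at 92.7, 38.6 and 43.2 FPKM in responsive tumors.

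Among 12 other inhibitory and macrophage checkpoint genes, 5 were higher and 7 lower in responsive than in nonresponsive tumors (median -0.19), and 11 of 12 were higher in nonresponsive than in PBS tumors (median 0.45). Of all genes, 42.6% were higher in the former comparison and 44.6% in the latter. Pdcd1, which encodes PD-1, was at 8.18, 7.39 and 7.23 FPKM in responsive tumors and at 4.97, 4.95 and 3.75 FPKM in nonresponsive tumors (0.64, SE 0.19, limma unadjusted p = 0.0158, adjusted p = 0.885). In PBS tumors it was at 1.44, 8.65 and 3.18 FPKM. All 9 T cell markers were higher in the same comparison (median 0.45), where 42.6% of all genes were. An unadjusted p under 0.05 was found in 3 of the 9 and in 5.49% of all genes. The summed T cell markers were 115 to 163 FPKM in responsive and 92.5 to 101 FPKM in nonresponsive tumors. Their part in Pdcd1 was not tested. Cd22, a Siglec of B cells, was at 13.9, 7.62 and 18.2 against 7.34, 5.83 and 4.66 FPKM (0.98, SE 0.35, adjusted p = 0.885). In the same direction, 6 of 7 B cell markers had an unadjusted p under 0.05, where 5.49% of all genes had one in either direction. The summed B cell markers were 64.3 to 224 FPKM in responsive and 30.4 to 50.3 FPKM in nonresponsive tumors, and their part in Cd22 was not tested. B2m, Lilrb4a and Cd274, the highest of the list, differed by -0.26 (SE 0.41), -0.47 (SE 0.68) and -0.32 (SE 0.44) between responsive and nonresponsive tumors. The entry of Lilrb4a also named other genes in all 9 tumors, that of B2m in 5 and that of Cd274 in 1.

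Of 17 genes for find-me signals and phosphatidylserine exposure, 8 were higher and 9 lower in responsive than in nonresponsive tumors (median -0.04), where 42.6% of all genes were higher. Pla2g6, a phospholipase that releases a find-me lipid, was at 7.39, 9.18 and 7.01 FPKM in responsive and at 5.26, 4.08 and 5.71 FPKM in nonresponsive tumors (0.56, SE 0.21, adjusted p = 0.885). Ano6, the scramblase that exposes phosphatidylserine, was lower in all responsive than in all PBS tumors, at 15.1, 25.5 and 18.9 against 34.9, 30.9 and 30.1 FPKM (-0.69, SE 0.22, adjusted p = 0.281). Tmem30a, the flippase subunit, differed by 0.18 (SE 0.15) between responsive and PBS tumors.

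Of 15 other chaperone and immunogenic cell death genes, 10 were higher and 5 lower in responsive than in nonresponsive tumors (median 0.16), and 3 were higher and 12 lower in nonresponsive than in PBS tumors (median -0.08). Of all genes, 42.6% were higher in the former comparison and 44.6% in the latter. None of the 15 had an unadjusted p under 0.05 in any comparison. Responsive and nonresponsive tumors did not overlap in 3 of the 15, where 10.5% of all genes did not. These were P4hb and the heat shock genes Hspa1a and Hspa1b, which stood on 1 shared entry in 6 of 9 tumors and are near-identical copies, so they count as 1 uncertain value. Hmgb1, a nuclear protein released by dying cells, was at 521, 307 and 468 FPKM in PBS tumors, 196, 341 and 601 FPKM in nonresponsive tumors and 295, 356 and 283 FPKM in responsive tumors, with overlap between all groups, on an entry that named a further gene in all tumors.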

How the data were processed

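Bulk RNA sequencing of 9 tumors, 1 per mouse, was grouped by sample title into PBS, nonresponsive and responsive tumors (3 each). The authors deposited 1 Cufflinks table per tumor with FPKM per assembled gene and its 95% interval. The submitters' processing notes name TopHat2 2.1.1, Bowtie2 2.2.4 and mm8, but entry coordinates could not be tied to a build and are not printed. A table for the whole series holds the authors' own Cuffdiff comparisons and was not used. Fragment counts are not given, so precision was read from the Cufflinks intervals and relative depth from single-fragment values.

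FPKM was summed over the entries naming a symbol, for 52163 symbols that formed 50406 genes once names that always share an entry were joined, and 13 names with a failed estimate were left out. Differences were tested with limma 3.58.1 (R 4.3.3; lmFit, eBayes with trend) on log2(FPKM + 1), two-sided, in the 6 tumors of a comparison, for genes that reached an FPKM of 1 in 3 or more of these tumors, with Benjamini-Hochberg adjustment over all genes tested. The pseudocount of 1 understates changes of low genes. Single genes also had an exact permutation test (scipy 1.17.1). On 20 simulated data sets of 13845 genes for responsive against nonresponsive tumors, a change of 2 on the log2 scale was recovered at an adjusted p of 0.05 in 47.9% of changed genes, and at an unadjusted p of 0.05 in 89.2%.

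The 10 genes and all lists were chosen with earlier results of these data known, and support nothing by their choice. Named genes were all members, of each pathway list the 3 with the highest mean FPKM, the 5 pathway genes with the smallest unadjusted p in each comparison, of each marker list discussed the 2 with the highest mean FPKM, and per member the 2 genes with the highest Pearson correlation over 9 tumors. Dcn, Des, Afp, Canx, Pdia6, Hspa1a, Hspa1b, P4hb and the markers listed at 0 were named after their values were seen. Some genes that this rule names are not reported here. The macrophage markers C1qa, C1qb, C1qc and Mrc1 and the Kupffer cell markers Marco and Timd4 are also in pathway lists, as are the endothelial markers Stab2 and Pecam1. Nothing in the labels pairs tumors by number, and deviations of same-numbered tumors from their group means correlated at -0.394 to 0.475, so the numbers were not used as pairs. No pair of tumors held the same values (at most 0.00586% of genes identical). P-values rest on the spread between mice of 1 experiment, and the antibody groups held only mice picked for the largest or smallest tumors. Spread within these groups is therefore not that of all treated mice. Alternatives were pseudocount, filter, scaling, joined loci, all tumors in 1 fit, covariates, replicate block, robust variance and leaving out each tumor.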

Additional observations from a re-analysis of the deposited data

How the results depend on the processing

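No gene of the 10 passed an adjusted p of 0.05 under any alternative (537 refits of 30 differences, lowest adjusted p 0.159), and 505 of them kept the direction. Responsive against nonresponsive tumors turned in Sirpa (-0.18) and Calr (-0.033) with named-entry scaling, and in Sirpa (-0.10) when hepatocyte markers and the top 50 entries were left out of that scaling. With the hepatocyte list as covariate in all 9 tumors, Sirpa (-0.75), Axl (0.12) and Tyro3 (0.079) turned between the antibody groups, Axl (0.048) and Tyro3 (0.15) in nonresponsive against PBS tumors, and Sirpa (-0.60), Lrp1 (-0.83), Mertk (-0.47), Axl (0.17) and Tyro3 (0.23) in responsive against PBS tumors. The mean log2 level of this list did not overlap between responsive and other tumors, so the fit cannot fully separate list and group there. With the macrophage list as covariate, Lrp1 (0.17), Mertk (0.10) and Gas6 (0.33) turned between the antibody groups, Sirpa (-0.047), Lrp1 (-0.23), Axl (0.26) and Tyro3 (0.37) in nonresponsive against PBS tumors, and Lrp1 (-0.066) in responsive against PBS tumors. Leaving out 1 tumor gave ranges that crossed 0 between the antibody groups for Sirpa (-0.32 to 0.29), Lrp1 (-0.67 to 0.15), Mertk (-0.41 to 0.030) and Gas6 (-0.56 to 0.23), for Tyro3 in nonresponsive against PBS tumors (-0.42 to 0.054) and for Cd24a in responsive against PBS tumors (-0.29 to 0.023). The filters, robust variance, replicate block and all 9 tumors in 1 fit left the differences themselves unchanged, so these refits could not turn a direction. Where groups did not overlap, leaving out a tumor could not turn it either. Differences of Gas6 against PBS and of Cd47 and Mfge8 in the 3 comparisons kept their direction in each refit. In these cases the cause was not tested.

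The median of the 10 genes between the antibody groups was -0.32 with named-entry scaling, where that of all genes was -0.24, and 0.17 with the macrophage covariate. With a tumor left out it was lowest at -0.19 (nonresponsive tumor 3 omitted) and highest at 0.14 (nonresponsive tumor 1 omitted). In responsive against PBS tumors it was -0.035 with the hepatocyte covariate, 0.025 with the macrophage covariate and 0.20 (without responsive tumor 1) to 0.53 (without PBS tumor 2) with a tumor left out.

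The counts of all genes past an adjusted p of 0.05 were 16, 11 and 32 (responsive against nonresponsive, nonresponsive against PBS, responsive against PBS). For the first comparison the count was 9 without a filter on low values, 8 with a filter at an FPKM of 5, 8 with joined loci, and 0 (without responsive tumor 3, 333 at an unadjusted p under 0.05 by limma) to 32 (without nonresponsive tumor 1) with a tumor left out. For the second it was 5 without a filter, 5 with joined loci, 6 with all 9 tumors in 1 fit, 5 with the hepatocyte and 6 with the macrophage covariate, and with a tumor left out from 2 (nonresponsive tumor 2 omitted) to 30 (nonresponsive tumor 3 omitted). For the third it was 19 with joined loci, 16 with all 9 tumors in 1 fit, 6 with the hepatocyte and 19 with the macrophage covariate, and 7 (without responsive tumor 3) to 49 (without PBS tumor 2) with a tumor left out. With the tumor number as a replicate block the counts by limma were 1, 0 and 0 (937, 237 and 948 at an unadjusted p under 0.05); these tumors share only a number, and the block made no call among the 10 genes. Fragment counts are not given, so no limit from depth was computed.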
